A study of Mus musculus with 8 samples.

Results

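N6-methyladenosine (m6A) sites that carry no gene name in the deposited lists are described here. They were found by 1 rule: a site had to be listed in both control libraries of TBLC, with the entry ELSE in place of a gene. Of 49554 sites listed in both control libraries, 3211 met it, and the other 46343 carried a gene name and are called named sites below. The change in siVirma and the EPSC levels played no part in the rule, but a site is listed only from a level of 0.1 and 5 A reads upward, so the siNC level bears on membership.

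There are 8 mouse libraries, 2 in each of 4 groups. In TBLC, grown in MYCP medium, 1 group was transfected with siNC, a control siRNA, and the other with siVirma, which targets Virma. In EPSC, both groups carried dCas13b-FTO, an RNA-guided fusion with an m6A eraser, with either a control guide (sgCtrl) or a Gata6 guide (sgGata6). TBLC and EPSC are commonly used names for totipotent blastomere-like cells and extended pluripotent stem cells; the labels give the short names only. Separate cultures are not stated for replicates, so a p-value reflects how far these libraries differ from each other, possibly for technical reasons only.

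m6A is placed on mRNA by a writer complex in the nucleus, in which Mettl3 and Mettl14 form the catalytic core and Virma is a large scaffold subunit. Most of this m6A lies in 3′ untranslated regions and long internal exons, and it marks transcripts for binding by YTH-domain reader proteins. GLORI is a chemical assay in which unmethylated adenosine is deaminated and read as G, while m6A is still read as A. The level of a site is A/(A+G), its share of reads that stayed A. How gene names were assigned to sites is not stated by the labels or files used here. Because no annotation or genome of the files' build, mm39, was used, exons, introns, UTRs and the bases around a site are not stated.

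Sites without a gene made up 5107 of 66350 and 4353 of 61957 entries of the siNC lists, and 2800 of 41082 and 2132 of 34739 entries of the siVirma lists. As a share this was 7.7% and 7.03% for siNC, then 6.82% and 6.14% for siVirma, lower in both siVirma libraries. The lists hold 4764955 and 4367999 A+G reads in siNC and 3423268 and 2655963 in siVirma. Of the sites without a gene in siNC replicate 1, 62.9% were also in replicate 2, and 73.8% the other way, against 75.7% and 80.5% for named sites.

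In control cells the sites without a gene had about the same median level as named sites, with more sites near full methylation. Their median level was 0.414 and 0.421 in siNC replicates 1 and 2, against 0.41 and 0.409 for named sites. Quartiles of the mean siNC level were 0.248 and 0.719, against 0.243 and 0.681. A mean siNC level of 0.9 or more was found at 13.3% of them and at 8.17% of named sites, while levels under 0.2 made up 16.9% and 17.0%. Coverage was lower, with a median of 41 and 36 A+G reads per site in the 2 siNC libraries against 45 and 43. These are descriptions of the same 2 libraries, and no test was made between the sets.

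Reads were unevenly spread. The 4 sites with the most siNC reads held 33.1% of the 640620 A+G reads at all 3211 sites. They lay on chromosome 7 at 130436273, chromosome 16 at 17040254 and chromosome 12 at 78397702 on the plus strand, and on chromosome 19 at 61187042 on the minus strand. Each stood alone, with no other site without a gene within 1 kb on its strand. The nearest named sites, of Tacc2, Hic2, Pals1 and Csf2ra, were 67141, 35079, 486661 and 26367 nt away.

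The chromosome 7 site was read as A in 82692 of 86664 and 70313 of 73690 reads in siNC, and in 83618 of 87614 and 65726 of 68934 in siVirma. Its level was therefore 0.954 ± 3.58e-06 in siNC and 0.954 ± 0.000656 in siVirma (SD, n = 2). The 4 libraries cannot be separated by group at this site, despite the depth (edgeR adjusted p = 0.87). The chromosome 16 site had 0.956 and 0.956 in siNC and 0.954 and 0.952 in siVirma, and the chromosome 12 site 0.944 and 0.939 against 0.937 and 0.934. At both, the siVirma libraries lay just below the siNC libraries, and neither difference passed the test (edgeR adjusted p = 0.216 and 0.0604). The chromosome 12 site passed with the replicate number as a block (edgeR adjusted p = 0.0308), by Fisher's exact test on pooled reads (0.0252) and without siNC replicate 2 (0.0259). The chromosome 19 site had 0.979 and 0.974 in siNC and 0.977 and 0.977 in siVirma, with overlapping groups (edgeR adjusted p = 0.685). The same 4 sites also had the most EPSC reads, where the pooled sgCtrl level was 0.976 (95% Wilson interval 0.975 to 0.978), 0.971 (0.966 to 0.975), 0.957 (0.95 to 0.964) and 0.995 (0.991 to 0.997). These intervals reflect counting error alone and take the reads as independent. Where no molecular identifiers are used, reads are not independent molecules, so the intervals may be too narrow.

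Sites without a gene lay on every chromosome that had named sites, with different shares. Chromosome 13 held the most, 239 sites or 7.44% of them, against 3.85% of named sites. Chromosome X held 203, which is 6.32% against 2.0% of named sites, so 17.9% of all X-linked sites in both siNC lists had no gene. On chromosome 19 the share was 3.99%, the lowest of any chromosome. The mitochondrial genome held 1 such site. All 12 sites of chromosome Y and all 29 sites on 5 unplaced or unlocalised scaffolds were without a gene.

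Of the 3211 sites, 2214 lay on the plus strand, which is 69.0%, against 54.8% of named sites. On all 20 chromosomes with at least 50 sites without a gene, the plus-strand share was above 50% (at most 80.4%), and above that of named sites on the same chromosome (at most 62.2%). The share was 64.9% among sites that stood alone and 77.5% among sites in clusters of 5 or more. Sites of 1 cluster share a strand by definition, and the cause of the difference was not tested.

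Most of these sites were far from any named site. Of the 3211, 756 lay within 10 kb of a named site on the same strand and 41 had no named site on their strand of the chromosome or scaffold. The median distance was 139978 nt, and 11.3% of those with a distance were within 1 kb. A named site was within 1 kb on the opposite strand for only 18 of them. By position, 146 sites lay between listed sites of a single gene. Outside such spans, 471 lay 3′ of the nearest named site within 10 kb, and 152 lay 5′ of it within 10 kb. The other 2442 are called beyond 10 kb, a class that includes the 41 with no named site on their strand.

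Outside the spans of listed genes, 75.6% of those within 10 kb were on the 3′ side in the direction of transcription, with a median distance of 1016 nt against 2796 nt on the 5′ side. The first kilobase on the 3′ side held 232 and the first on the 5′ side 45. Of the 2550 named sites that lay within 10 kb of a site of another gene, 47.1% were on its 3′ side. Between neighbouring genes, sites of the downstream gene count as 3′ and those of the upstream gene as 5′. This share is therefore held near balance and is no baseline for the 75.6%. It also counts sites inside gene spans, and counted so, 72.5% of the 756 sites without a gene were on the 3′ side.

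**Figure D1:**
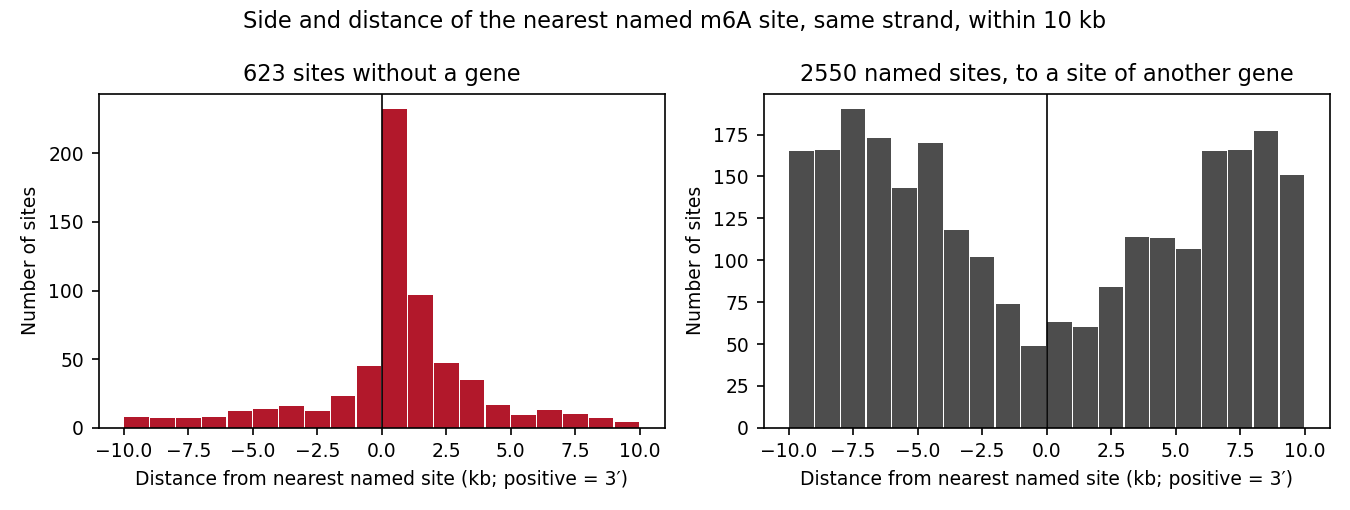
Numbers of sites by signed distance to the nearest named site on the same strand, in 1 kb bins within 10 kb; positive values are 3′ in the direction of transcription. Left, sites without a gene outside the span of a listed gene, with 232 in the first 3′ kilobase and 45 in the first 5′ kilobase; right, named sites measured to the nearest site of another gene, which are fewest close to 0.

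The 471 sites on the 3′ side followed 193 genes, of which 99 had a single such site and 23 had 5 or more. The genes with the most were Eif4ebp2 and Lncenc1 with 17 each, Appbp2 with 10, and Klf5, H1f2 and Dync1li1 with 9 each. A neighbour in this sense need not be the transcript that carries the site. Among gene lists, 3 of 32 pluripotency and early lineage regulators had such sites downstream, namely Klf5, Zfp42 and Tead4, with 15 sites between them. For chromatin regulators it was 2 of 30 genes (Dnmt1 and Chd8), for the m6A machinery 0 of 15, and for genes named Zfp, Zkscan or Zscan, mostly zinc finger genes, 8 of 240. Predicted genes, with names starting in Gm or ending in Rik, had them in 67 of 723, which is 9.27% against 2.27% of all 8492 genes with a site in both siNC lists. No test was made between these lists.

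Eif4ebp2 encodes a repressor of cap-dependent translation. Its 17 downstream sites formed a single cluster on the minus strand of chromosome 10 between 61264598 and 61267779, starting 971 nt past its last named site. Their median coverage of 138 A+G reads per siNC library was close to the 137 of the 4 named sites, and their median level was 0.391 against 0.175. Of the 17, 10 were in both siVirma lists and could be tested (20 or more A+G reads in all 4 TBLC libraries), and all 10 fell by edgeR's test at an adjusted p under 0.05. Of all 20414 sites tested in this way, named or not, 91.6% fell, so a count near that share says nothing particular about these sites. Their median level was 0.519 and 0.552 in siNC against 0.198 and 0.237 in siVirma, with no overlap.

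Klf5 encodes a Krüppel-like transcription factor of pluripotent cells and trophectoderm. Its 9 downstream sites lay 132 to 1526 nt past the last named site at 99550761 on chromosome 14, with a median coverage of 372.5 reads against 142.5 at its 11 named sites. The 3 tested sites had median levels of 0.661 and 0.709 in siNC and 0.259 and 0.233 in siVirma, and all 3 fell. H1f2 encodes a linker histone, and its 9 downstream sites on chromosome 13 had a median siNC level of 0.857, the highest of these 6 genes. The 5 tested there fell from 0.916 and 0.876 to 0.721 and 0.5, keeping a median of 64.6% of their level. For Appbp2 all 3 tested downstream sites fell, and for Dync1li1, which encodes a dynein light intermediate chain, all 4. With 3 to 5 tested sites per gene, these counts cannot be told from the 91.6% of all tested sites.

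Lncenc1 is a long noncoding RNA of naive embryonic stem cells, and the region 3′ of it on the plus strand of chromosome 13 held the largest cluster of sites without a gene. A cluster is a run of these sites on 1 strand with gaps of at most 1 kb. A cluster of 14 lay between 97635486 and 97637541, 1538 nt past the last Lncenc1 site. The larger cluster, 30 sites between 97645150 and 97649597, began 11202 nt past it. With gaps of up to 5 kb both joined into 1 group of 47 sites over 14112 nt. Of the 47, 22 were in both siVirma lists, 19 could be tested and 14 fell, a lower share than the 91.6% of all tested sites. In the cluster of 30, the tested sites had median levels of 0.488 and 0.453 in siNC and 0.207 and 0.26 in siVirma.

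The next clusters by size were far from named sites. The second had 21 sites on the plus strand of chromosome 7 between 42645974 and 42649423, with its nearest named site, of Gm17768, 98190 nt away. Its median siNC level of 0.591 was the highest of the 5 largest clusters, 15 sites were in both siVirma lists, and 6 of 9 tested sites fell, against 91.6% of all tested sites. Its tested sites had median levels of 0.71 and 0.697 in siNC and 0.429 and 0.542 in siVirma. Another had 20 sites on the plus strand of chromosome 11 between 19829484 and 19833605, 137412 nt from the nearest site of Spred2, and 5 of 5 tested sites fell, from 0.7 and 0.696 to 0.405 and 0.379.

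At a gap of 1 kb, 1551 of the 3211 (48.3%) had no other such site beside them, 1172 were in clusters of 2 to 4 and 488 were in 61 clusters of 5 or more. Joined in the same way among themselves, 10.1% of named sites stood alone. Genomic distance ignores splicing, and named sites are far more numerous. A siNC level of 0.9 or more was found at 18.8% of the sites that stood alone, against 9.81% in clusters of 2 to 4 and 4.51% in clusters of 5 or more. Median coverage was 36, 39 and 45.2 reads per siNC library in these classes.

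The knockdown comparison asks how loss of Virma changes m6A. Of the 3211 sites, 1361 (42.4%) were in both siVirma lists, against 47.5% of named sites, and 1154 (35.9%) were in neither, against 32.9%. Taken 1 library at a time, siVirma listed 56.0% and 50.4% of them, against 59.4% and 55.2% of named sites. Named sites weighted to the same spread of siNC level and coverage had 46.4% in both lists. Restricted to siNC levels of at least 0.2, the share was 51.6% for sites without a gene and 60.03% for named sites. With at least 50 reads in both siNC libraries the order turned, with 52.6% for sites without a gene and 49.0% for named sites. Lists hold only called sites, so absence from a list is no measured level.

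At a siNC level of 0.1 to 0.2, 7.72% of sites without a gene were in both siVirma lists, against 2.49% of named sites. At 0.4 to 0.5 it was 40.2% against 54.6%, at 0.7 to 0.8 65.2% against 87.8%, and at 0.9 to 1 81.3% against 94.0%. The share for sites without a gene was the higher one at the 2 lowest level steps and the lower one at all others. Among sites with at least 100 reads in both siNC libraries that were in neither siVirma list, the 4 with the highest level had only 0.327 to 0.335. The first of them, on chromosome 10 at 90448408, had 51 A reads of 148 and 53 of 163 in siNC.

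**Figure D2:**
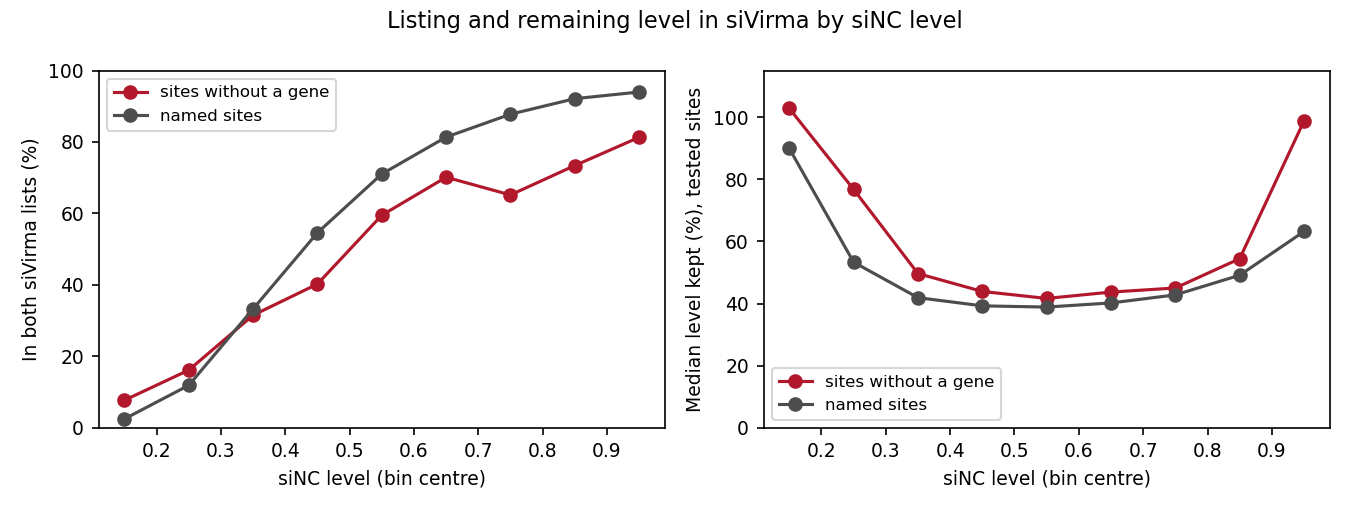
Left, percentage of sites in both siVirma lists by siNC level in steps of 0.1; right, median siVirma level as a percentage of the siNC level at tested sites. Red, sites without a gene; grey, named sites. At 0.9 to 1 fewer sites without a gene were listed (81.3% against 94.0%), while those tested kept 98.8% of their level against 63.2%. At low siNC levels the listing minimum of 0.1 holds the kept share up in both sets.

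Levels could be compared at 1112 of these sites, those in all 4 TBLC lists that had 20 or more A+G reads in every library. Sites that dropped out of a siVirma list are therefore not among them, which leaves out the strongest possible falls in both sets. Their median level was 0.65 and 0.639 in siNC, against 0.33 and 0.33 in siVirma. The siNC and siVirma libraries did not overlap, with a mean change of -0.312 (exact permutation test over libraries, two-sided, p = 0.33, the smallest that 2 against 2 libraries allow). At 19302 named sites the medians were 0.646 and 0.645 in siNC and 0.263 and 0.267 in siVirma. The difference of medians, sites without a gene minus named sites, was 0.00447 and -0.00572 in siNC, against 0.0702 and 0.0667 in siVirma (exact permutation test, two-sided, p = 0.33, again the smallest possible). This extra level of 0.069 in siVirma was 0.0166 with at least 50 reads in each library and 0.132 with means in place of medians.

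By edgeR's quasi-likelihood test over all sites, with Benjamini-Hochberg adjustment at 0.05, 633 of the 1112 fell, which is 56.9%. Of all 20414 tested sites 91.6% fell, and of the named sites 93.6%. Rises were called at 15 of them (1.35%), against 0.147% of all sites, and 464 were not called, against 8.28% of all sites. These 15 were 50.0% of the 30 rises in the whole table, although sites without a gene were 5.45% of the sites tested. They were also 27.5% of the sites not called. The adjustment removed no rise, as the cut-off of 0.05 gave the same counts, 15 and 30, without it. A set with more sites that did not fall has more room for rises by chance. The 50.0% can therefore not be read as an enrichment of rises, and none was tested. The siVirma level was below the siNC level with no overlap between libraries at 732 of the 1112 sites (65.8%), against 94.8% of all sites. It was above it with no overlap at 72 (6.47%), against 0.715% of all sites.

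The share of the siNC level that was left in siVirma gathered in 2 ranges. Between 30% and 60% lay 509 of the 1112 sites and 14511 of the 19302 named sites. Between 90% and 110% lay 338 of the sites without a gene and 415 named sites. In all, 400 of them (36.0%) kept at least 90% of their level, against 536 of 19302 named sites (2.78%). They made up 42.7% of the 936 tested sites that kept at least 90%. A tested site is listed at a level of 0.1 or more in siVirma, so one at a low siNC level must have kept much of it. At siNC levels of 0.1 to 0.2 the median kept share was 103% at 42 tested sites without a gene and 89.9% at 196 named sites. The median kept share was 59.7% for sites without a gene and 44.8% for named sites.

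**Figure D3:**
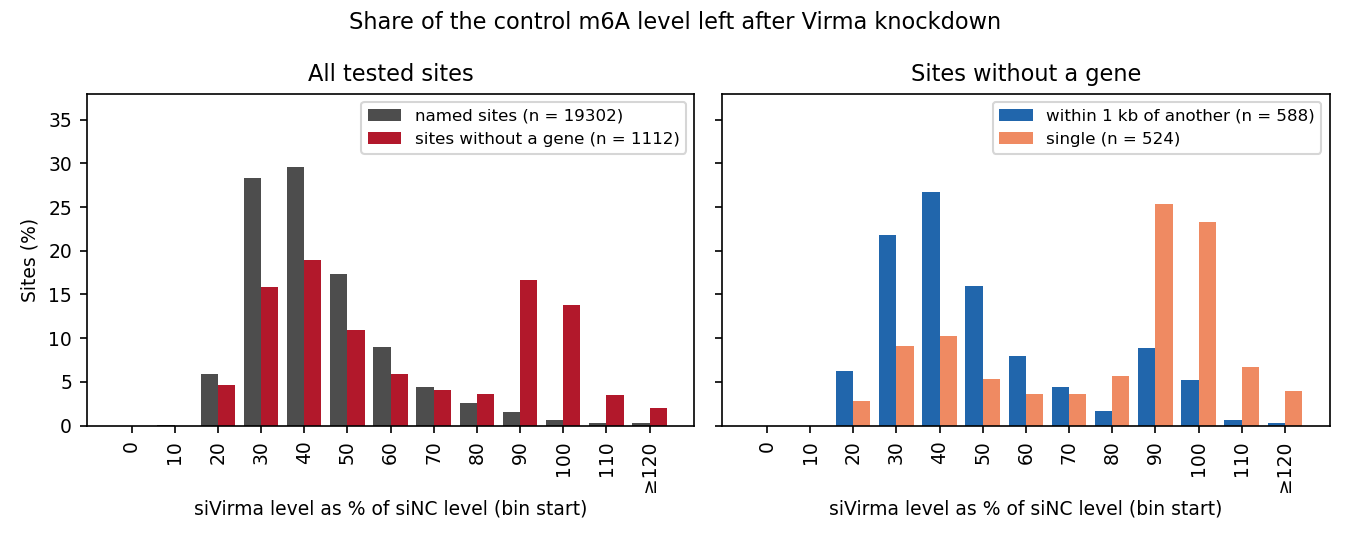
Percentage of tested sites by siVirma level as a share of the siNC level, in steps of 10%. Left, sites without a gene (n = 1112) have a second peak at 90% to 110% that is not seen for named sites (n = 19302); right, this peak is high among those that stood alone (n = 524) and low among those in clusters (n = 588).

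The 2 ranges went with how the sites lay to each other. Of 524 tested sites that stood alone, 170 fell (32.4%), 15 rose and 339 were not called, and 311 (59.4%) kept at least 90% of their level. Of 210 in clusters of 5 or more, 189 fell, a share close to the 91.6% of all tested sites, and 7 kept at least 90%. Those in clusters of 2 to 4 were between, with 274 of 378 falling (72.5%). All 15 rises were at sites that stood alone. Of all tested sites only 0.147% rose, so a count of 0 among the clustered ones is near that share. In clusters of any size edgeR called 0 rises, with 0 higher at an unadjusted p under 0.05. DESeq2, Fisher's exact test and limma also called 0, and limma had 1 higher at that p. With no read minimum edgeR called 1, and without siNC replicate 1 it also called 1.

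Per library, the median level at sites that stood alone was 0.68 and 0.681 in siNC, against 0.484 and 0.502 in siVirma. In clusters of 5 or more it was 0.604 and 0.602 in siNC, against 0.247 and 0.257 in siVirma. The difference between sites that stood alone and all clustered ones was 0.0617 and 0.0604 in siNC, against 0.202 and 0.226 in siVirma (exact permutation test, two-sided, p = 0.33, the smallest possible). Coverage of the tested sites was similar: median A+G reads were 61.5, 49, 54 and 44 in siNC replicates 1 and 2 and siVirma replicates 1 and 2 for those that stood alone, and 58, 55, 61.5 and 51 for clustered ones. Among those with at least 50 reads in every library, in the same fit, 59 of 200 that stood alone fell (29.5%), against 214 of 256 clustered ones (83.6%). Both shares are below that of all sites at this coverage, 94.4% of 9010 in a separate fit of these sites.

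**Figure D4:**
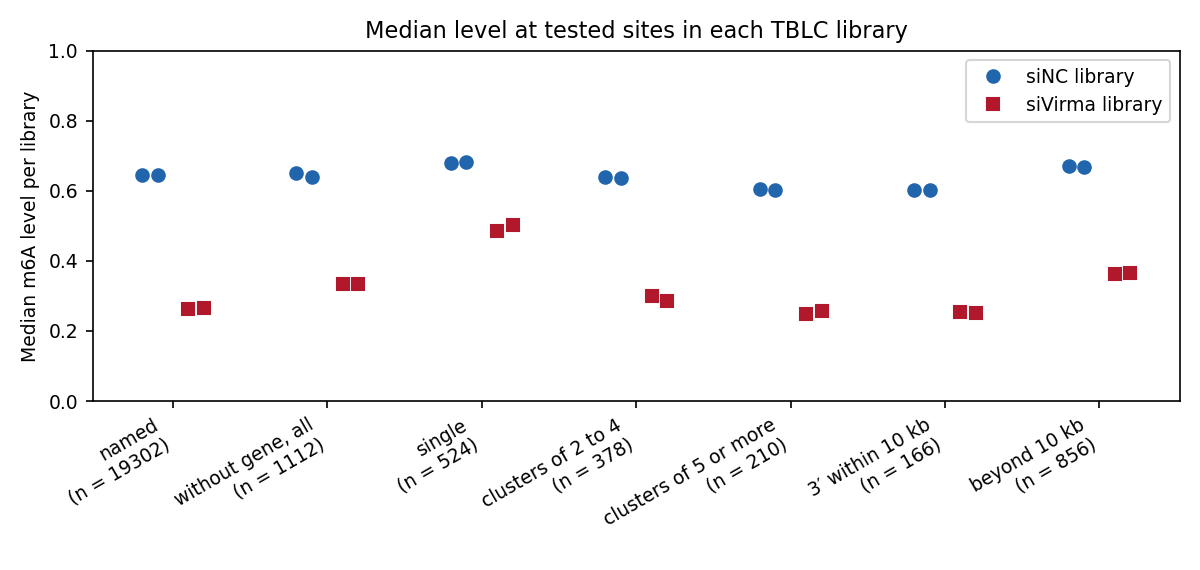
Median m6A level per TBLC library at tested sites, for named sites, all sites without a gene, and the latter by cluster size and by position. Circles are siNC and squares siVirma libraries. The siVirma libraries of sites that stood alone are at 0.484 and 0.502, above those of every other class shown.

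Position relative to genes separated them as well. Of 166 tested sites on the 3′ side within 10 kb, 146 fell (88.0%), 1 rose and 13 kept at least 90%, with a median of 44.9% kept. This share of falls is near the 91.6% of all tested sites, so it says nothing particular about the 3′ side. The other classes lay below it. Of 856 beyond 10 kb, 429 fell (50.1%) and 365 kept at least 90%. On the 5′ side 32 of 52 fell, and between sites of a single gene 26 of 38. Shares differed by cluster size within position too: beyond 10 kb, 30.3% of 455 that stood alone fell, against 83.2% of 113 in clusters of 5 or more. Within 10 kb on the 3′ side 18 of 30 that stood alone fell, against 77 of 79 in clusters of 5 or more. The latter is again near the share of all tested sites.

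Named sites that stood alone were set beside them. For this comparison, chosen after the counts above were seen, a site counted as isolated when no other site of both siNC lists, named or not, lay within 1 kb on its strand. Of 1186 tested isolated named sites, 66.7% fell and 22.8% kept at least 90% of their level. Of 493 isolated sites without a gene, 30.02% fell and 61.9% kept at least 90%. The isolated named sites had the lower median siNC level, so the listing minimum bears more on their kept share. At sites with a neighbour within 1 kb the shares that fell were 95.3% for 18116 named sites and 78.4% for 619 sites without a gene. The difference of library medians, isolated sites without a gene minus isolated named sites, was 0.207 and 0.21 in siNC, against 0.299 and 0.303 in siVirma (exact permutation test, two-sided, p = 0.33, the smallest possible).

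Sites close to full methylation lie far above the calling minimum for the level. Of 280 tested sites without a gene at a siNC level of 0.9 or more, 77 fell (27.5%) and 211 (75.4%) kept at least 90%. Of 2907 named sites at that level, 95.6% fell and 5.54% kept at least 90%. For those that stood alone, the library medians were 0.958 and 0.959 in siNC and 0.954 and 0.952 in siVirma, over 184 sites. For those in clusters at that level they were 0.951 and 0.941 in siNC and 0.803 and 0.777 in siVirma, over 96 sites.

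Unconverted adenosines need not all be m6A. The lists give 1 conversion rate per chromosome for sites without a gene, with medians of 98.0% and 97.8% in siNC and 98.1% and 98.2% in siVirma. The rates ranged from 94.4% to 99.0% in siNC and from 95.8% to 99.1% in siVirma. Named sites have a rate per gene, with medians of 97.9% and 97.9% in siNC and 98.6% and 98.6% in siVirma. Whether the adenosines that stayed unconverted in siVirma carry m6A or another modification, or were misread, was not tested.

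Under the naming rule, the highest siVirma levels with at least 50 reads in every library were on chromosome 18 at 82250472, chromosome 15 at 70105278, chromosome 4 at 14279840 and chromosome 7 at 127013891. The chromosome 18 site was read as A in 97 of 98 and 60 of 60 reads in siNC and in 99 of 99 and 61 of 61 in siVirma. The chromosome 15 site had 0.967 and 0.955 in siNC and 0.991 and 0.982 in siVirma. The chromosome 4 site had 0.991 and 0.989 in siNC and 0.99 and 0.982 in siVirma. All 4 stood alone, and none passed the test (edgeR adjusted p 0.111 to 0.81); by limma the chromosome 15 and chromosome 7 sites did, as higher (adjusted p = 0.0322 and 0.0292). The chromosome 7 site, 4430 nt on the 3′ side of the zinc finger gene Zfp688, had 0.971 and 0.957 in siNC and 0.981 and 0.989 in siVirma. In EPSC it was read as A in 224 of 228 sgCtrl reads.

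The 4 largest falls under the same minimum follow. On chromosome 17 at 56546396, 18513 nt from the nearest site of Fem1a, the level was 0.852 and 0.812 in siNC, against 0.325 and 0.172 in siVirma. This is a change of -0.584 (log2 odds ratio -3.79, SE 0.40, edgeR adjusted p = 1.78e-11), and the groups did not overlap. On chromosome 4 at 69773237, 171 nt on the 3′ side of Gm11222, it was 0.895 and 0.899 in siNC, against 0.358 and 0.312 in siVirma. On chromosome 9 at 114337472, 3456 nt on the 3′ side of Trim71, which encodes an RNA-binding ubiquitin ligase of early embryos, it fell from 0.817 and 0.825 to 0.297 and 0.23. On chromosome 2 at 160604268, 440 nt on the 3′ side of the phospholipase gene Plcg1, it fell from 0.705 and 0.794 to 0.198 and 0.225. Each of the last 3 was in a cluster, and each had at least 68 reads in every library.

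The 15 rises had edgeR adjusted p-values from 0.00386 to 0.0436. The lowest p was on chromosome 1 at 171497064, where 103 of 411 and 77 of 333 reads were A in siNC and 118 of 397 and 109 of 323 in siVirma. The level there was 0.241 ± 0.0137 in siNC and 0.317 ± 0.0284 in siVirma (SD, n = 2; edgeR adjusted p = 0.00386), with no overlap. Without siVirma replicate 2 its edgeR adjusted p was 0.0779, and by limma on logit levels it was 0.145. The other large rises were on chromosome 4 at 33825614, chromosome 3 at 45953957 and chromosome 6 at 140265440, with changes of 0.097, 0.0872 and 0.081. The first lost its call without siNC replicate 1 or siVirma replicate 2 (edgeR adjusted p = 0.196 and 0.361). The second lost it without siNC replicate 2 or either siVirma replicate (0.143, 0.121 and 0.105), and the third without either siNC replicate or siVirma replicate 1 (0.213, 0.075 and 0.715). With every library kept, these 3 also lost their calls by limma (adjusted p = 0.149, 0.138 and 0.264) and by DESeq2 (0.112, 0.0736 and 0.145). Leaving out any single TBLC library gave fewer than 15 rises among sites without a gene, and also fewer rises among all tested sites.

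The 3 sites farthest from a named site, with at least 50 reads in both siNC libraries, were all on the minus strand of chromosome X. At 113238137, 6796684 nt from the nearest named site, of Itm2a, the level was 0.681 and 0.784 in siNC, against 0.263 and 0.349 in siVirma (edgeR adjusted p = 1.94e-10). At 126144214, 7346464 nt from Gla, it was 0.143 and 0.22 in siNC and 0.205 in siVirma replicate 2, with no entry in replicate 1. At 81134271, 6304006 nt from Pls3, it was 0.134 and 0.119 in siNC, and neither siVirma library listed it.

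The EPSC table gives 1 pooled value per group and carries no SD. It holds 675 of the 3211 positions (21.0%) and 30.2% of the named ones, and 418 of the former had at least 20 sgCtrl reads. The table lists sites that passed the calling minimums in at least 1 EPSC group, so these are the better covered positions. At the 418 the median level was 0.536 in siNC and 0.529 in sgCtrl. The median difference, sgCtrl minus siNC, was -0.00472 (quartiles -0.0572 and 0.0331), against -0.0443 at 7615 named sites. The 2 levels were within 0.1 of each other at 77.8% of sites without a gene and 64.3% of named sites. The EPSC carried dCas13b-FTO, which holds an m6A eraser, and the TBLC were transfected with siRNA. These, the cell type, the library set and the pooling all differ between the 2 values and cannot be told apart, so no test was made.

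At 145 sites without a gene that kept at least 90% in siVirma, the median was 0.941 in siNC, 0.937 in siVirma and 0.955 in sgCtrl. The sgCtrl and siNC levels were within 0.1 of each other at 91.7% of them. At 127 tested sites that kept less, the medians were 0.575, 0.216 and 0.536, and 64.6% were within 0.1. The first set lay near full methylation and the second at middle levels, so these shares are not like for like. Both sets were split by the share of the siNC level kept in siVirma, so how their siVirma and siNC medians compare follows from the split. At 80 named sites that kept at least 90% the medians were 0.895 in siNC and 0.833 in sgCtrl, and 70.0% were within 0.1. Of 120 sites at a siNC level of 0.9 or more, 91.7% had 0.9 or more in sgCtrl as well, against 53.0% of 576 such named sites. The EPSC table listed 43.8% of the 400 sites that kept at least 90% and 35.8% of the other 712 tested.

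**Figure D5:**
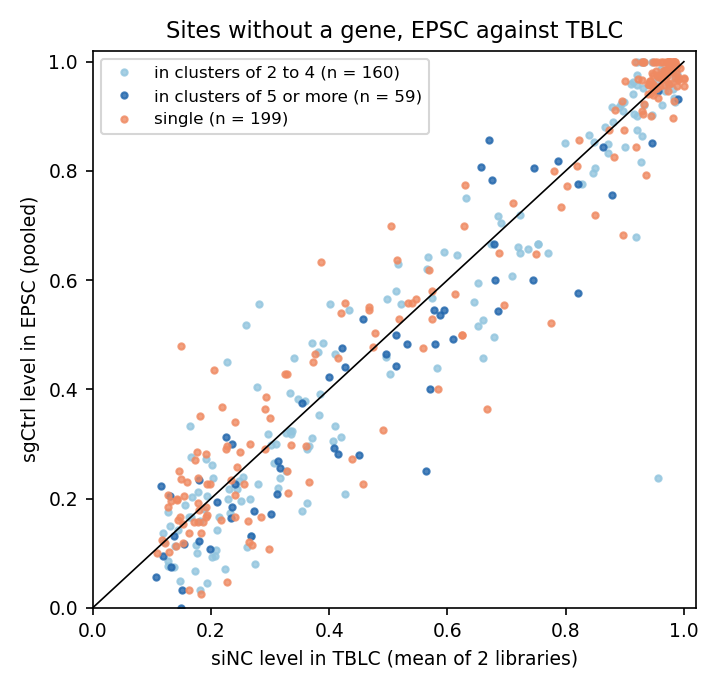
Pooled sgCtrl level in EPSC against the mean siNC level in TBLC at 418 sites without a gene with at least 20 sgCtrl reads; the line marks equal levels. Sites that stood alone (orange, n = 199) gather at the upper right corner, and clustered ones (blue) are spread along the line.

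Between the EPSC groups, Fisher's exact test on pooled reads called 0 of 332 sites without a gene after adjustment over all 10185 tested rows, where 0.275% were called. At an unadjusted p under 0.05 there were 19 of the 332, a share near that of named sites (378 of 6906). The lowest adjusted p among sites without a gene was 0.155. This test compares the pooled reads and not the conditions. At the 4 sites with the most reads, the sgGata6 levels were 0.977, 0.976, 0.956 and 0.995, within 0.01 of the sgCtrl levels.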

How the data were processed

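GLORI libraries were made from mRNA, per the labels' protocols, and the submitters' processing notes name the build mm39. The aligner, the caller and the placement of reads fitting several positions were not given in the sources used here. The deposited lists give counts of A+G and A reads per called site, the level as a fraction, and the authors' p-values and adjusted p-values. They also give a conversion rate as a fraction and a coverage signal, per the file headers; for sites without a gene both are 1 value per chromosome. Listed sites have at least 15 A+G reads, 5 A reads, a level of 0.1 and an adjusted p of at most 0.004, as seen from the values. The deposited EPSC table holds counts pooled per group, and its coverage columns were not used.

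Changes were tested with edgeR 4.0.16 (R 4.3.3) on A and G reads of all sites in the 4 TBLC lists with at least 20 A+G reads each, with a term per library. The log2 value of a site is a log2 odds ratio of A against G reads, siVirma against siNC. limma 3.58.1 (0.5 added to A and G reads), DESeq2 1.42.0 and Fisher's exact test were alternatives. The edgeR fit was tested on simulated data. Summaries used Python 3.11.15, pandas 2.3.3 and scipy 1.17.1. For the weighted retention, named sites were binned by level (steps of 0.1) and mean A+G reads (30, 60 and 120).

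The set of sites, the gene lists and the tests were chosen with earlier results of these data known. Named items followed a rule: the 5 largest clusters, the 4 sites with the most siNC and EPSC reads, the 4 largest falls and rises, the 4 highest siVirma levels, the 4 highest siNC levels absent from siVirma, the 3 farthest sites, and the 6 genes with the most sites downstream.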

Additional observations from a re-analysis of the deposited data

How the results depend on the processing

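The 633 falls among sites without a gene were 274 and the 15 rises 5 with at least 50 reads in each library, where fewer sites were tested (456). Rises numbered 2 by DESeq2 and 9 by Fisher's exact test on pooled reads, and 3 to 12 with single TBLC libraries left out. The falls then numbered 604 to 706. Only sites that stood alone gave 170 falls, and only clustered ones 0 rises by edgeR (1 higher at an unadjusted p under 0.05 by limma). That 0 is near the 0.147% of all tested sites that rose. Over the alternatives that kept all 4 TBLC libraries, the share that fell was 29.5% to 33.8% for sites that stood alone. It was 71.8% to 84.0% for clustered ones and 87.7% to 94.4% for all tested sites. For clustered ones and for all sites, the lowest share was by DESeq2 and the highest with at least 50 reads. With the replicate number as a block, 631 sites without a gene fell and 15 rose, and 91.6% of all tested sites fell. The deviations of same-numbered libraries correlated at 0.00844. At these read counts this cannot show whether the libraries share more than a number, and the labels do not state it. Retention in both siVirma lists, 42.4%, was 52.6% with at least 50 siNC reads, 51.6% from a siNC level of 0.2 and 24.2% for sites in at least 1 siNC list. Named sites, at 47.5%, had 49.0%, 60.03% and 34.4% in these settings, so the order of the sets turned with at least 50 reads. With single libraries left out it was 28.5% to 56.0%, because sites of 1 siNC list or a single siVirma list were then counted. The share that stood alone, 48.3%, was 62.8% at a gap of 100 nt and 45.1% at 5 kb. Measured to named sites of any TBLC list, 27.5% of sites lay within 10 kb, against 23.5%. The level change of the median kept its direction under all 6 alternatives run for it, as did its difference from named sites under 7. Of the 17 sites described singly with a test, the 5 falls kept their call under every alternative in which they were tested and the 4 rises each lost it under at least 1. Of the 8 not called, 3 were called under at least 1 alternative. The 2-against-2 design limits the permutation tests, and at 20 to 50 reads a site's level is known only coarsely.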
